A study of Mus musculus with 19 samples.

Results

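Transcripts of 10 genes of the NRF2 pathway were examined in neoplastic cells of mouse lung tumors. The genes were *Nfe2l2*, *Keap1*, *Nqo1*, *Hmox1*, *Gclc*, *Gclm*, *Slc7a11*, *Srxn1*, *Txnrd1* and *Gsr*, chosen by name as the core of the pathway, and they are 10 of the 53558 genes listed in each library. All mice, those of the sgInert group included, carried a Cre-dependent tdTomato reporter (R26LSL-tdTomato) and a Cre-dependent Cas9 allele (H11LSL-Cas9), so that Cre from the delivered virus turns on the reporter and Cas9 in the same cells. Tumors were started through the trachea with a Lenti-sgRNA/Cre vector and grew for 17 weeks. The vector carried 3 inert sgRNAs (sgNeo1, sgNT, sgNeo2; sgInert, 7 libraries), sgRNAs against *Cebpa*, *Cebpb* and *Cebpd* together (sgCebpa/b/d, 7 libraries) or an sgRNA against *Lkb1* (sgLkb1, 5 libraries), whose gene symbol is *Stk11*. Neoplastic cells were isolated by FACS, with dead cells and cells stained for CD45, CD31, F4/80 or Ter119 left out. The sgRNAs act in any cell that takes up the virus, edits can differ from cell to cell, and no value here shows which share of sorted cells was edited.

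NRF2, encoded by *Nfe2l2*, is a transcription factor that KEAP1 holds back and marks for destruction through a CUL3 ubiquitin ligase. Oxidants and electrophiles modify KEAP1, and NRF2 then accumulates, pairs with small MAF proteins and binds antioxidant response elements in front of genes that make glutathione, recycle thioredoxin and detoxify quinones. Because this control acts mostly on the NRF2 protein, the *Nfe2l2* and *Keap1* transcripts alone do not show how active the pathway is. In human lung adenocarcinoma, mutations of *KEAP1* and *STK11* (LKB1) often occur in the same tumors. C/EBP factors can pair with ATF4, the transcription factor of the amino acid stress response, which shares *Slc7a11* as a target with NRF2.

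The libraries held 2760722 to 9944131 estimated counts (median 6028918). Library titles carried an animal number starting with ZR (4 sgInert libraries) or MT (3 sgInert, 4 sgCebpa/b/d and 3 sgLkb1 libraries), or none (3 sgCebpa/b/d and 2 sgLkb1 libraries), and 3 of the 4 MT libraries of sgCebpa/b/d shared 1 animal, as did 2 MT libraries of each other group. The MT libraries thus came from 2 animals in each group. Every adjusted p given below for MT libraries alone rests on these animals, with each library treated as independent. All 5 sgLkb1 libraries were from females, against 4 of 7 sgCebpa/b/d and 3 of 7 sgInert libraries. In sgCebpa/b/d the 4 MT libraries were the female ones and the 3 without an animal number were male. Sex and title series therefore cannot be told apart within that group. *Stk11* (in log2 CPM, the log2 share of a library's counts after TMM scaling) lay between 2.97 and 3.68 in sgLkb1 and between 4.31 and 4.53 in sgInert libraries, without overlap. *Cebpa* RNA, by contrast, was higher in every sgCebpa/b/d library (6.17 to 6.97) than in any sgInert library (5.43 to 6.11). Its RNA level is therefore no check of that label. The ranges of *Cebpb* and *Cebpd* overlapped between these groups. The summed level of 10 alveolar type II markers was 30730 to 65300 TPM, a share of transcripts corrected for length, over all libraries. It was 47200 to 65300 TPM in sgInert and 38690 to 51310 TPM in sgLkb1 libraries. In sgCebpa/b/d it was 51060 to 55980 TPM in the MT libraries and 30730 to 45490 TPM in those without an animal number. Of these 10 markers, 4 were called lower in sgCebpa/b/d and 5 in sgLkb1 than in sgInert (edgeR adjusted p under 0.05), and 0 higher. Of all genes tested, 5.36% and 2.97% were called lower. The summed level of 18 leukocyte markers was 235.5 to 1179 TPM in the 5 libraries without an animal number, 22.2 to 287.4 TPM in the ZR libraries and 5.53 to 22.3 TPM in the MT libraries, with *Adgre1*, *C1qc* and *Cd3e* at 0 counts in every sgInert library. *Chil3* weighs heavily in this sum, reaching 971.6 TPM in sgCebpa/b/d, 407.9 TPM in sgLkb1 and 218.7 TPM in sgInert libraries. *Ptprc* reached 21.6, 17.5 and 1.42 TPM in these groups, while the medians of *Cd68* were 10.3, 13.6 and 15.6 TPM. Of 8 endothelial markers, 6 were called higher in sgCebpa/b/d and 1 in sgLkb1 than in sgInert (edgeR adjusted p under 0.05). Of all genes tested, 4.73% and 2.81% were called higher in these comparisons. The median log2 fold change of the endothelial markers was 2.31 and 2.11, with 8 of 8 above 0 in both, and 0 were called between the targeted groups. Of 8 fibroblast markers, 2 were called higher in each. The part of these markers in the results was not tested. In bulk RNA, fewer cells of a type and less RNA per cell cannot be told apart.

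The 10 genes differed widely in level. In deposited TPM, which is corrected for transcript length, *Nfe2l2* was the highest in sgInert libraries (median 362.1 TPM, 200.1 to 481) and *Gclc*, the catalytic subunit of the rate-limiting enzyme of glutathione synthesis, followed (178.6 TPM, 107.1 to 275.6), with ranges that overlapped. A middle group with overlapping ranges held *Hmox1* (29.7 TPM), *Txnrd1* (24.5 TPM), *Gclm* (24.3 TPM) and *Gsr* (17.6 TPM), and *Keap1* had a lower median of 10.1 TPM with a range that overlapped that of *Gsr*. *Srxn1* (2.28 TPM), *Slc7a11* (1.18 TPM) and *Nqo1* (0.70 TPM) were lowest, and their ranges overlapped. The sgInert median of *Gclc* was thus far above that of *Gclm*, the modifier subunit of the same enzyme, and no sgInert library had a *Gclm* level inside the *Gclc* range.

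**Figure D1:**
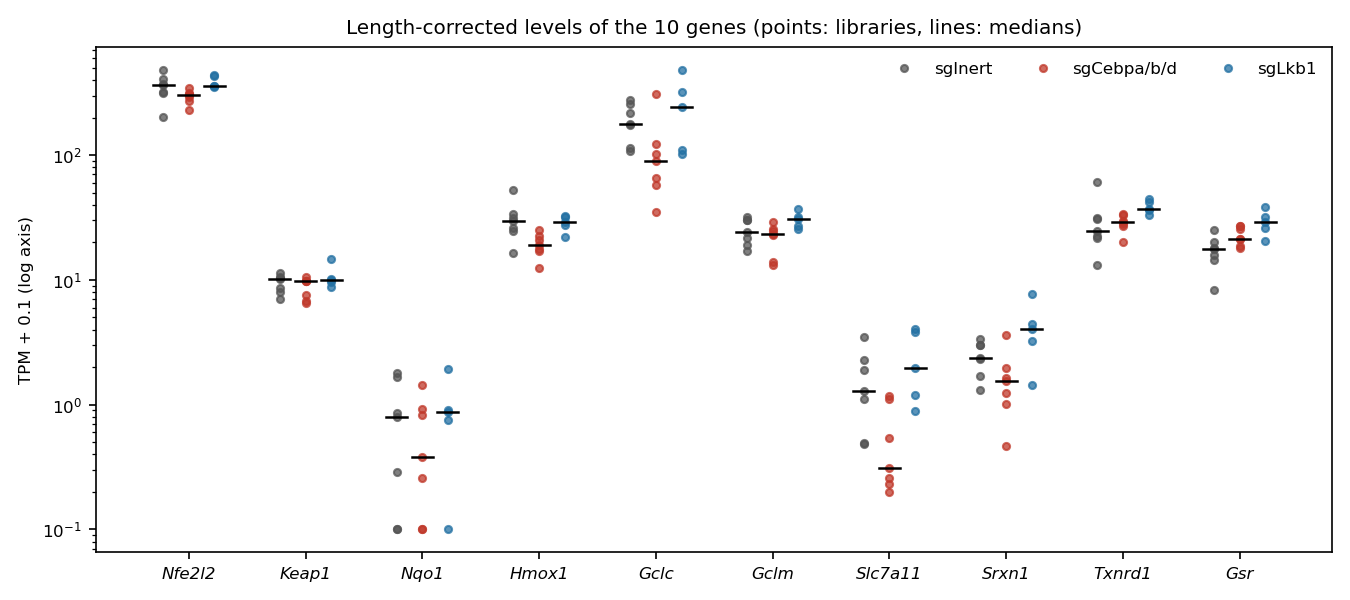
Deposited TPM plus 0.1 on a log axis for the 10 genes, with 1 point per library (7 sgInert, 7 sgCebpa/b/d, 5 sgLkb1) and a line at each group's median. *Nfe2l2* (200.1 to 481 TPM in sgInert libraries) and *Gclc* sit on top, and *Nqo1*, at most 1.82 TPM anywhere, has the lowest median in sgInert and sgLkb1, while that of *Slc7a11* (0.21 TPM) is the lowest in sgCebpa/b/d.

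Of the 10 genes, 9 passed the filter on low counts and were tested, and *Nqo1* did not. A gene is said to have passed where the adjusted p of edgeR's quasi-likelihood test was under 0.05 over the 13986 genes tested, with all 19 libraries in 1 model. For sgCebpa/b/d against sgInert, 1 of 9 passed (*Hmox1*, lower) with edgeR, where 10.1% of all genes tested did. An unadjusted p under 0.05 was found for 5 of 9, a level at which all genes were not counted. DESeq2 called 2 of 9 (*Hmox1* and *Slc7a11*, lower), where it called 13% of all genes, and limma on TPM called 0. In sgLkb1 against sgInert, 0 of 9 passed, where 5.78% of all genes did, with 1 gene (*Gsr*) at an unadjusted p under 0.05, which DESeq2 and limma on TPM each called. In sgCebpa/b/d against sgLkb1, 1 of 9 passed (*Slc7a11*, lower), where 5.96% of all genes did (2.83% higher, 3.12% lower), and 3 of 9 had an unadjusted p under 0.05. When an absolute log2 fold change above 1 was also asked, 0, 0 and 1 of 9 passed in these comparisons, where 4.65%, 3.01% and 2.8% of all genes did. With 9 genes, counts of 0 and 1 are near these shares. The first 2 comparisons share the sgInert libraries, and their values are given side by side.

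The median log2 fold change of the 9 genes was -0.28 in sgCebpa/b/d against sgInert, beside 0.02 over all genes tested. In sgLkb1 against sgInert it was 0.18, beside -0.01. In sgCebpa/b/d against sgLkb1 it was -0.20, beside 0.03. The fitted change there was below 0 for 9 of 9 genes, although 8 of these did not pass, and for 6538 of the 13986 genes tested. That of *Keap1* was only -0.07 and turned above 0 in some alternative fits. No member had libraries that separated the groups without overlap, in any comparison, where 3.37%, 4.15% and 5.08% of all genes tested did.

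**Figure D2:**
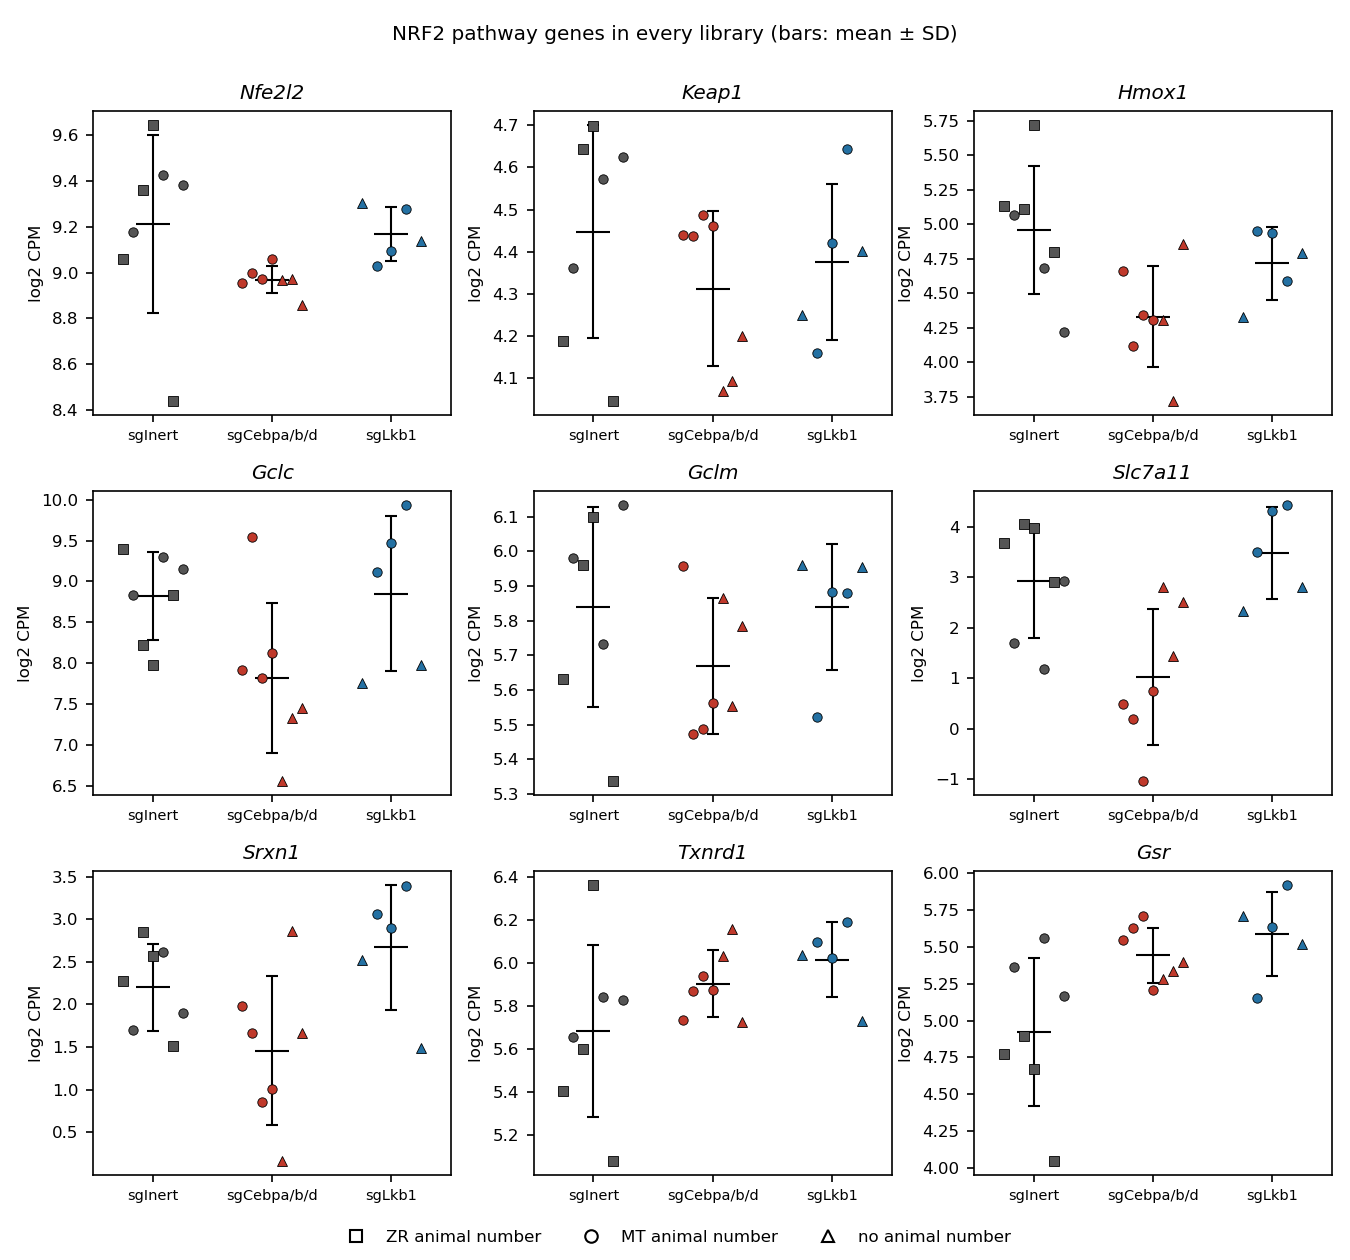
Log2 CPM (TMM-scaled, prior count 2) of the 9 tested genes in every library, by virus group, with the mean and SD of each group as bars and the animal number in the library title as the symbol. The sgCebpa/b/d libraries overlap the sgInert libraries in each panel, and in the *Slc7a11* panel the 4 MT libraries of sgCebpa/b/d lie between -1.04 and 0.75.

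**Figure D3:**
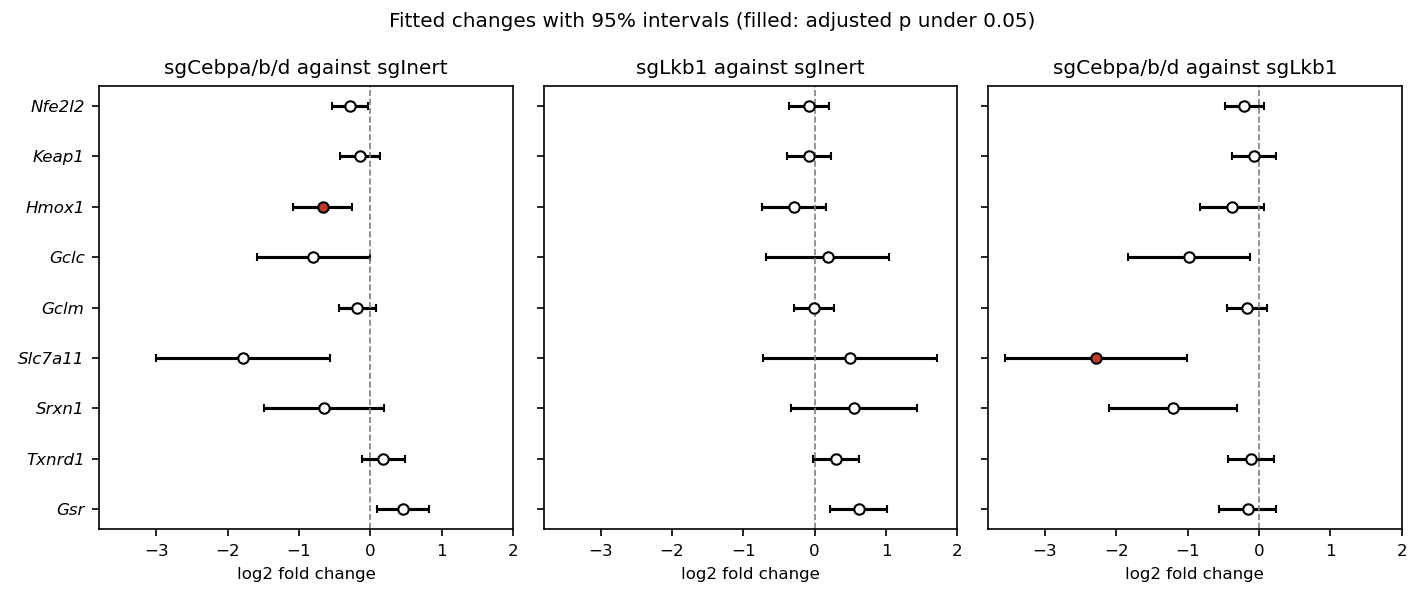
Fitted log2 fold change with its 95% interval for each of the 9 tested genes in the 3 comparisons, filled where the adjusted p was under 0.05. *Hmox1* (-0.67) is filled in the first panel, none in the second and *Slc7a11* (-2.29) in the third.

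*Nfe2l2* and *Keap1*, the members that encode NRF2 and its sensor, did not pass in the fit of all libraries. *Nfe2l2*, which encodes NRF2 (chr2:75675513-75704641, GRCm38, minus strand), ranged from 8.44 to 9.64 log2 CPM in sgInert libraries, with a median of 9.36. It ranged from 8.86 to 9.06 in sgCebpa/b/d libraries, with a median of 8.97, and measured 9.31, 9.03, 9.09, 9.28 and 9.14 in the 5 sgLkb1 libraries. The sgCebpa/b/d libraries were the most uniform (SD 0.06, n = 7, against 0.39 in sgInert, n = 7) and lay inside the sgInert range. Its fitted change was -0.28 ± 0.12 (SE, log2) in sgCebpa/b/d and -0.08 ± 0.13 in sgLkb1 against sgInert, with edgeR adjusted p of 0.154 and 0.824. Among MT libraries alone the first change was -0.35 and passed (edgeR adjusted p = 0.0326), as did that over all libraries without sgInert replicate 6, the lowest (-0.38, adjusted p = 0.00454). The sensor gene *Keap1* (chr9:21229730-21239361) spanned 4.05 to 4.70 log2 CPM in sgInert libraries, 4.07 to 4.49 with sgCebpa/b/d and 4.16 to 4.64 with sgLkb1. The 3 groups of *Keap1* overlapped, and the 95% intervals of its change were -0.43 to 0.14 with sgCebpa/b/d and -0.39 to 0.23 with sgLkb1 against sgInert. The antisense gene Gm16754 shares 10.9% of the exonic bases of *Keap1*, and its reads cannot be told apart here.

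*Hmox1*, which encodes the heme-degrading enzyme heme oxygenase 1 (chr8:75093621-75100589), was the member that passed in sgCebpa/b/d against sgInert. Its level ranged from 4.22 to 5.72 log2 CPM in sgInert libraries (median 5.07) and from 3.72 to 4.85 in sgCebpa/b/d libraries (median 4.31). The sgLkb1 libraries measured 4.33, 4.95, 4.94, 4.59 and 4.79. Most sgInert libraries were above most sgCebpa/b/d libraries, but the groups overlapped, since sgInert replicates 5, 6 and 7 lay within the sgCebpa/b/d range. *Hmox1* fell by 0.67 ± 0.20 (SE, log2; 1.59-fold) in sgCebpa/b/d (edgeR adjusted p = 0.0339). In sgLkb1 its change was -0.29 ± 0.22 with an adjusted p of 0.525, and the difference between both targeted groups was -0.38 ± 0.21 with an adjusted p of 0.375, so the change was not shown to differ between them. The sgInert libraries of the ZR series lay at 4.80 to 5.72 and those of the MT series at 4.22 to 5.07, and in MT libraries alone the change of *Hmox1* was -0.36 and did not pass (adjusted p = 0.385). The call was lost without any 1 of sgInert replicates 1 to 4 or sgCebpa/b/d replicates 2 to 6, with adjusted p up to 0.0883 by edgeR. Leukocyte markers were high in the sgCebpa/b/d libraries without an animal number (787.3 to 1179 TPM in sum) and *Hmox1* lay at 3.72 to 4.85 log2 CPM there, against 4.12 to 4.66 in the MT libraries of the same virus, where those markers summed to at most 11.5 TPM.

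*Slc7a11* encodes xCT, the transporter that brings in cystine for glutathione synthesis (chr3:49892526-50443614, minus strand), and of the 9 genes it had the largest fitted change of sgCebpa/b/d against either group. The sgInert libraries ranged from 1.17 to 4.04 log2 CPM with a median of 2.93, or 15 to 66 counts. The sgCebpa/b/d libraries ranged from -1.04 to 2.81 with a median of 0.75, or 1 to 42 counts. The sgLkb1 libraries measured 2.34, 3.5, 4.31, 4.43 and 2.81, or 41 to 216 counts. The 4 MT libraries of sgCebpa/b/d were the lowest of all and sgLkb1 replicates 3 and 4 the highest, yet the groups overlapped. *Slc7a11* fell by 2.29 ± 0.62 (SE, log2; 4.88-fold) in sgCebpa/b/d relative to sgLkb1 (95% interval -3.57 to -1.01, edgeR adjusted p = 0.0283). Its change against sgInert was -1.79 ± 0.59 in sgCebpa/b/d and 0.50 ± 0.59 in sgLkb1, with edgeR adjusted p of 0.0560 and 0.728, and neither passed. The change with sgCebpa/b/d passed without any 1 of sgInert replicates 2 and 5 or sgCebpa/b/d replicates 5 and 7, at -2.25 to -1.95 with adjusted p of 0.0212 to 0.0410. It also passed in 6 of 13 alternative fits, among them DESeq2 on counts, DESeq2 with gene length offsets and sex as a covariate. With title series as a covariate or with libraries of an animal summed it did not pass.

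The level of *Slc7a11* also differed with the title series, which in sgCebpa/b/d cannot be told apart from sex. In the MT libraries it lay at 1.17 to 2.93 log2 CPM in sgInert, at -1.04 to 0.75 in sgCebpa/b/d (1 to 8 counts) and at 3.5 to 4.43 in sgLkb1, 3 ranges that did not overlap. In these libraries alone its change against sgInert was -2.22 ± 0.58 (SE, log2) with sgCebpa/b/d and 2.14 ± 0.52 with sgLkb1 (edgeR adjusted p of 0.0291 and 0.0229), and the difference between both was -4.36 ± 0.55 (adjusted p = 0.000262). The MT libraries came from 2 animals in each group, and this fit treated each library as independent. The libraries without an animal number lay closer together, at 1.43 to 2.81 in sgCebpa/b/d and at 2.34 and 2.81 in sgLkb1, and the ZR libraries of sgInert lay at 2.91 to 4.04. In the libraries without an animal number, leukocyte markers summed to between 787.3 and 1179 TPM (sgCebpa/b/d) or to 235.5 and 557 TPM (sgLkb1), against 5.53 to 22.3 TPM in the MT libraries, and their part in the *Slc7a11* levels was not tested. With libraries of 1 animal summed, the difference between both targeted groups was -1.95 with an edgeR adjusted p of 0.120 and did not pass. In that fit each library without an animal number stayed separate, and whether some of these share an animal is not known. The call over all libraries was also lost without any 1 of sgCebpa/b/d replicates 1, 2, 4 and 6 or sgLkb1 replicates 3 and 4, with adjusted p up to 0.0916.

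The promoter of *Slc7a11* is shown because this gene carried the difference between both targeted groups and is the only member with a promoter entry that matched the C/EBP and ATF4 letters searched. The sequence runs from 250 bases before to 50 bases after the start (RefSeq, GRCm38.p6, chr3:50443564-50443863, minus strand), with the matches in capitals:
*Slc7a11*: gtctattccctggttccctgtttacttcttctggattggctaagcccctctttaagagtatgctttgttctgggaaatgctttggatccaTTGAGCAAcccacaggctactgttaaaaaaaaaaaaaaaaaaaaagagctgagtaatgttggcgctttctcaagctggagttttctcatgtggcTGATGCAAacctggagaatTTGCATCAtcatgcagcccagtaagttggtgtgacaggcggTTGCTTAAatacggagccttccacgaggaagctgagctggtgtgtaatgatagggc
The composite letters TGATGNAA, read by ATF4 paired with a C/EBP factor, matched at -66 to -59 on the gene's strand and at -47 to -40 on the other strand, both as TGATGCAA. The C/EBP letters TTGCNNAA matched at -160 to -153 and at -6 to 2. Over the 32851 promoters of the table, 3.97% held the composite and 10.8% the C/EBP letters on either strand. Both kinds are descriptions of sequence, and no binding was measured here.

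The subunits of the glutathione-making enzyme differed in spread. *Gclc* (chr9:77754535-77794485) ranged from 7.98 to 9.40 log2 CPM in sgInert libraries (median 8.84) and from 6.56 to 9.54 in sgCebpa/b/d libraries (median 7.81). The sgLkb1 libraries measured 7.76, 9.12, 9.47, 9.94 and 7.97. With sgCebpa/b/d, 6 of 7 libraries lay at 8.12 or below and replicate 2, the only MT library from its animal, at 9.54, above all sgInert libraries. The change of *Gclc* was -0.80 ± 0.38 (SE, log2) in sgCebpa/b/d and 0.18 ± 0.42 in sgLkb1 against sgInert, and -0.98 ± 0.41 between both, with edgeR adjusted p of 0.215, 0.877 and 0.192. Without sgCebpa/b/d replicate 2, the change of *Gclc* passed against sgInert (-1.29) and against sgLkb1 (-1.49), with edgeR adjusted p of 0.0132 and 0.0124. In both targeted groups the libraries without an animal number were lower (6.56 to 7.45 and 7.76 to 7.97) than the MT libraries (7.81 to 9.54 and 9.12 to 9.94). The libraries without an animal number are also those with the high leukocyte marker sums, whose part was not tested. In sgCebpa/b/d they are the only male libraries as well, so title series and sex cannot be told apart there. *Gclm* (chr3:122245557-122270732), by contrast, spanned 5.34 to 6.13 log2 CPM over all 19 libraries, and its change was -0.18 ± 0.13 in sgCebpa/b/d and -0.01 ± 0.14 in sgLkb1 against sgInert. Neither passed, with edgeR adjusted p of 0.415 and 0.977 and 95% intervals of -0.44 to 0.08 and -0.30 to 0.27. The antisense gene Gm17494 shares 4.71% of the exonic bases of *Gclm*, the pseudogene Gm6061 on the same strand shares others, and their reads cannot be told apart either.

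*Gsr* encodes glutathione reductase, which returns oxidized glutathione to its reduced form (chr8:33652523-33698163). It ranged from 4.05 to 5.56 log2 CPM in sgInert libraries (median 4.89) and from 5.21 to 5.71 in sgCebpa/b/d libraries (median 5.40). The sgLkb1 libraries measured 5.71, 5.15, 5.64, 5.92 and 5.52. The targeted libraries thus lay in or above the upper part of the sgInert range. The change of *Gsr* was 0.46 ± 0.18 (SE, log2) in sgCebpa/b/d and 0.62 ± 0.19 in sgLkb1 against sgInert, with edgeR adjusted p of 0.111 and 0.0622. The first passed without sgInert replicate 5 (0.59, adjusted p = 0.0361), and the second without any 1 of sgInert replicates 2 and 5 or sgLkb1 replicate 2 (0.69 to 0.74, adjusted p of 0.0207 to 0.0469). Among sgInert libraries, those of the ZR series lay at 4.05 to 4.89 and those of the MT series at 5.17 to 5.56, without overlap. Among MT libraries alone the change of *Gsr* was 0.15 ± 0.19 in sgCebpa/b/d and 0.23 ± 0.20 in sgLkb1, with edgeR adjusted p of 0.731 and 0.599.

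The thioredoxin branch gave no call in the fit of all libraries. *Txnrd1* (chr10:82833951-82897712), the cytosolic thioredoxin reductase, spanned 5.08 to 6.36 log2 CPM in sgInert libraries, 5.72 to 6.16 with sgCebpa/b/d and 5.73 to 6.19 with sgLkb1, and its change was 0.18 ± 0.14 and 0.30 ± 0.16 (SE, log2) with edgeR adjusted p of 0.492 and 0.325. *Srxn1* (chr2:152105516-152111376), the sulfiredoxin that repairs overoxidized peroxiredoxins, was low, at 14 to 45 counts in sgInert libraries, 5 to 41 with sgCebpa/b/d and 17 to 103 with sgLkb1. Its level ranged from 1.51 to 2.85 log2 CPM in sgInert libraries, 0.17 to 2.86 with sgCebpa/b/d and 1.48 to 3.39 with sgLkb1, with the 3 MT libraries of sgLkb1 (2.90 to 3.39) the highest of all. The difference of *Srxn1* between both targeted groups was -1.20 ± 0.43 with an edgeR adjusted p of 0.113 over all libraries. Among MT libraries it was -1.84 ± 0.42 and passed (adjusted p = 0.0158), with sgCebpa/b/d at 0.85 to 1.98. It also passed without sgCebpa/b/d replicate 6, the highest of its group (-1.60, adjusted p = 0.0222).

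Antioxidant response elements are the sites through which NRF2 acts, and the promoter of *Srxn1* is shown for the 3 matches it holds (RefSeq, GRCm38.p6, chr2:152105274-152105573, plus strand, matches in capitals):
*Srxn1*: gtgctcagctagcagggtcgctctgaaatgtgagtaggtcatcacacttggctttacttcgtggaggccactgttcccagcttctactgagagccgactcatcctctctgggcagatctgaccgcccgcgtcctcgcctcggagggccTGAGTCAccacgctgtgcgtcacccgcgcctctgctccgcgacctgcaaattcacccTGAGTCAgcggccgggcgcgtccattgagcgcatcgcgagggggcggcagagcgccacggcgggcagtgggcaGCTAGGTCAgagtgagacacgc
The AP-1 letters TGACTCA matched at -102 to -96 and at -45 to -39, both on the other strand, and the antioxidant response element core TGACNNNGC matched at 29 to 37, also on the other strand. Read as TGACTCA on its own strand, neither AP-1 match is followed by GC, so neither is a match to the core letters searched. On the gene's strand the second reads TGAGTCAgc, which the letters TGACNNNGC do not cover. Whether that site acts as an antioxidant response element was not tested. Of the 7 members with an entry, 4 held the core (*Nfe2l2*, *Gclm*, *Srxn1* and *Txnrd1*), beside 12.4% of all 32851 promoters, and only *Srxn1* held the AP-1 letters, beside 5.2%. The 7 members had 9 entries, since *Txnrd1* has several starts, and *Hmox1*, *Gclc* and *Gsr* had none. The members were chosen as core genes of the pathway, so these shares are descriptions of sequence and test nothing.

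*Nqo1*, the quinone reductase that is often used as a readout of NRF2, was barely detected. The gene (chr8:107388225-107403206) had 0 to 7 counts in sgInert libraries, 0 to 8 with sgCebpa/b/d and 0 to 11 with sgLkb1, and 5 of 19 libraries had 0, which allows up to 3 counts each. Its mean level was 0.717 ± 0.743 (SD, n = 7), 0.487 ± 0.519 (n = 7) and 0.789 ± 0.657 CPM (n = 5) in these groups. All 3 groups overlapped from 0 upward, a difference was not detectable at this depth, and 3 counts correspond to 0.302 to 1.09 CPM depending on the library.

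Among partners and repressors of NRF2, *Bach2* separated sgCebpa/b/d from both other groups. Of 12 listed regulators, all tested, 2 were lower in sgCebpa/b/d than in sgInert and none higher, where 5.36% of all genes passed as lower. *Bach2*, a BACH family repressor that binds the same elements with small MAF proteins, ranged from 3.67 to 5.47 log2 CPM in sgInert libraries, 1.94 to 3.11 with sgCebpa/b/d and 4.40 to 5.03 with sgLkb1. Every sgCebpa/b/d library was below every other library. *Bach2* fell by 1.77 ± 0.25 (SE, log2) against sgInert (edgeR adjusted p = 6.88e-05) and by 2.04 ± 0.27 against sgLkb1 (adjusted p = 4.83e-05), and within the MT libraries its changes were -1.12 and -1.81 (adjusted p of 0.0123 and 0.000424). *Mafk*, a small MAF partner, fell by 0.66 ± 0.16 in sgCebpa/b/d (adjusted p = 0.00852), with overlapping libraries, and its change of -0.54 within the MT libraries did not pass (adjusted p = 0.0824). In sgLkb1 against sgInert, 0 of 12 regulators passed with edgeR or DESeq2, and 2 had an unadjusted p under 0.05.

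Other NRF2 targets were mostly lower where they changed. Of 46 genes commonly listed as NRF2 targets besides the 10, 38 were tested. With sgCebpa/b/d, 9 were lower and 1 higher than in sgInert, where 5.36% and 4.73% of all genes passed in these directions, and the median change of the 38 was -0.19. In sgLkb1, 4 were lower and 1 higher, where 2.97% and 2.81% did, with a median of -0.07. *Mgst1*, a microsomal glutathione transferase, fell by 0.70 ± 0.12 (SE, log2) in sgCebpa/b/d and by 0.57 ± 0.14 in sgLkb1 (edgeR adjusted p of 0.000573 and 0.0144). Within the MT libraries its changes were -0.46 and -0.30, and the second did not pass (adjusted p of 0.0350 and 0.229). *Idh1*, an enzyme that makes NADPH, and *Tkt*, an enzyme of the pentose phosphate pathway, fell by 0.90 ± 0.17 and by 0.72 ± 0.14 in sgCebpa/b/d (adjusted p of 0.000898 and 0.00138). *Aox1*, an aldehyde oxidase, rose by 1.06 ± 0.17 in sgCebpa/b/d and by 0.76 ± 0.18 in sgLkb1 (adjusted p of 0.000223 and 0.0144), and in both its libraries lay above every sgInert library.

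Among other antioxidant enzymes, *Cat* was lower with either kind of targeting. Of 28 such enzymes, all tested, 2 were lower and 1 higher than in sgInert in each targeted group, where 10.1% (sgCebpa/b/d) and 5.78% (sgLkb1) of all genes passed. *Cat*, the catalase that breaks down hydrogen peroxide, ranged from 10.4 to 10.8 log2 CPM in sgInert libraries, 9.19 to 9.63 with sgCebpa/b/d and 9.14 to 9.62 with sgLkb1, and each targeted library was below each sgInert library. *Cat* fell by 1.16 ± 0.10 (SE, log2) in sgCebpa/b/d and by 1.18 ± 0.11 in sgLkb1 (edgeR adjusted p of 9.88e-08 and 1.04e-06), and within the MT libraries its changes were -1.26 and -1.39 (adjusted p of 1.50e-05 and 2.17e-05). *Gpx8*, a peroxidase of the endoplasmic reticulum, fell by 1.41 ± 0.23 in sgCebpa/b/d (adjusted p = 0.000338). In sgLkb1, *Txnrd3*, a thioredoxin and glutathione reductase, fell by 0.51 ± 0.15 (adjusted p = 0.0423) and *Msrb3*, a methionine sulfoxide reductase, rose by 0.43 ± 0.12 (adjusted p = 0.0332). Within the MT libraries neither of these passed, at -0.50 for *Txnrd3* and 0.44 for *Msrb3* (adjusted p of 0.125 and 0.0969).

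Around glutathione itself, 12 of 17 listed genes of synthesis and turnover (*Gclc*, *Gclm*, *Gsr* and *Slc7a11* left out) were tested, and 2 were lower and 1 higher in sgCebpa/b/d than in sgInert, where 5.36% and 4.73% of all genes passed in these directions. *Cth*, which makes cysteine from cystathionine, ranged from 4.68 to 5.59 log2 CPM in sgInert libraries, 2.21 to 3.84 with sgCebpa/b/d and 4.17 to 4.89 with sgLkb1. *Cth* fell by 1.83 ± 0.23 (SE, log2) in sgCebpa/b/d (edgeR adjusted p = 1.16e-05), with every library below every sgInert and every sgLkb1 library. *Chac1*, which degrades glutathione, had 0 to 3 counts in sgCebpa/b/d, 2 to 15 in sgInert and 8 to 41 in sgLkb1 libraries, and passed as lower in sgCebpa/b/d against both (adjusted p of 0.00105 and 0.00104). *Ggt5*, a gamma-glutamyltransferase, rose by 1.05 ± 0.18 in sgCebpa/b/d (adjusted p = 0.000519). In sgLkb1 against sgInert, 0 of the 12 passed with edgeR, while 4 had an unadjusted p under 0.05 and DESeq2 called 2.

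Several genes of the ATF4 response, to which *Slc7a11* is also counted, fell with targeting of the C/EBP factors. Of 12 listed genes, all tested, 5 were lower and none higher in sgCebpa/b/d than in sgInert, where 5.36% of all genes passed as lower, and the median change of the 12 was -0.58 (0.02 over all genes). This list, like the others, was chosen with earlier results of these data known, so its count beside that share is a description. *Nupr1*, a stress-induced chromatin protein, fell by 2.07 ± 0.17 (SE, log2; edgeR adjusted p = 9.66e-08), *Vldlr*, a lipoprotein receptor, by 1.93 ± 0.23 (adjusted p = 7.29e-06) and *Asns*, asparagine synthetase, by 1.55 ± 0.25 (adjusted p = 0.000279). The sgCebpa/b/d libraries of each of these 3 genes were below all sgInert libraries. The others that passed were *Chac1* and the amino acid transporter *Slc7a5*. *Atf4* itself did not pass, at -0.08 ± 0.14 in sgCebpa/b/d and 0.08 ± 0.16 in sgLkb1 (adjusted p of 0.789 and 0.855). In sgLkb1 against sgInert, 0 of 12 passed with edgeR or DESeq2, 1 passed with limma on TPM, and 2 had an unadjusted p under 0.05. The direct comparison with sgLkb1 called the same 5 of 12 as lower with sgCebpa/b/d, where 3.12% of all genes passed as lower. Of the 11 genes with a promoter entry, 5 held the composite letters TGATGNAA in at least 1 entry (*Trib3*, *Asns*, *Chac1*, *Nupr1* and *Vldlr*), beside 3.97% of all promoters, counted per entry. *Trib3* did not pass, and *Slc7a5* passed but is not among these 5. The genes were chosen as known ATF4 targets, so this share is a description of sequence and tests nothing. No binding was measured here.

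**Figure D4:**
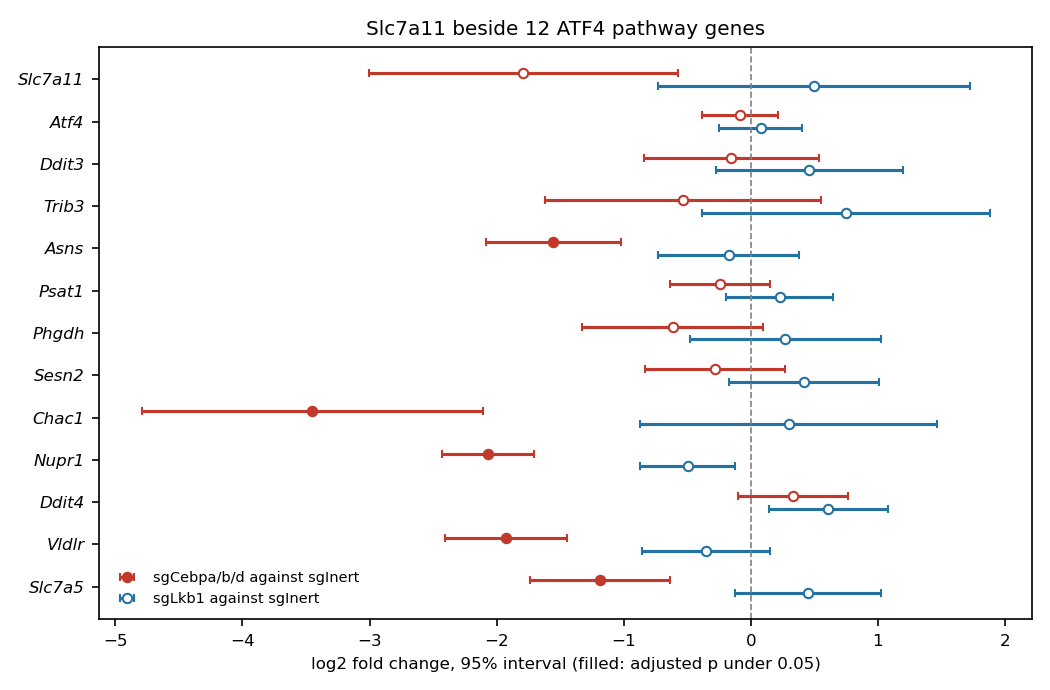
Fitted log2 fold change with its 95% interval of *Slc7a11* and of 12 genes of the ATF4 response in sgCebpa/b/d (red) and in sgLkb1 (blue) against the same sgInert libraries, filled where the adjusted p was under 0.05. In red, 5 of the 12 genes are filled and lie between -3.45 (*Chac1*, at most 3 counts in any sgCebpa/b/d library) and -1.19 (*Slc7a5*), and in blue none is filled.

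The genes nearest in pattern were found for both members that passed, by the root mean square difference of z-scores of log2 CPM over the 19 libraries, where 0 would be the same pattern. For *Slc7a11* they were *Abcc5* (0.514), a transporter that is itself on the list of other NRF2 targets, *Fut8* (0.546) and *Snhg11* (0.573), beside a median of 1.38 over all genes. For *Hmox1* they included *Limk2* (0.507) and *Fbxo34* (0.530), beside 1.39. The 3 nearest of *Slc7a11* had fitted changes of -0.97, -1.14 and -1.74 (log2) in sgCebpa/b/d and of 0.31, -0.01 and -0.42 in sgLkb1 against sgInert. These genes were picked for likeness over the same 19 libraries, so changes like those of *Slc7a11* are built into the choice.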

How the data were processed

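RNA of FACS-sorted neoplastic cells had been made into Trio RNA-Seq libraries, aligned to mm10 with STAR 2.6.1d and quantified with RSEM 1.2.30 by the authors. The deposited expected counts are unnormalized RSEM estimates, which share multi-mapped reads between genes, and the deposited TPM values are scaled for length and to a fixed total. The authors' normalized table and DESeq2 1.26.0 tables of fold changes and p-values were not used. Expected counts were rounded, and the low-count filter of edgeR (filterByExpr with min.count 10 and min.total.count 15) left 13986 genes. TMM scaling and the quasi-likelihood test of edgeR 4.0.16 (R 4.3.3) were run with 3 groups and no covariate over all 19 libraries, with Benjamini-Hochberg adjustment over all genes and 95% intervals from the test's standard error. Adjusted p-values are from this test unless another tool is named. Alternatives used DESeq2 1.42.0, limma 3.58.1 on log2(TPM + 1) and other libraries or covariates. Where libraries of an animal were summed, the 5 libraries without an animal number were each kept as they were, since their animals are not known. Figures used matplotlib 3.10.9. The procedure was tested on simulated counts.

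Groups, sexes and title series came from the labels. No 2 libraries of a group agreed within sampling noise (chi-square per gene 6.67 to 73.7). P-values measure the spread between libraries, some of which share an animal. The limit given for a count of 0 covers counting error only, because amplified reads are not independent molecules. Whether counting used strand is not given in the sources used here. The members and lists were chosen with earlier results of these data known. All members are named, and from each other list up to 4 genes with the smallest p against sgInert among those that passed, with the 3 genes nearest in pattern to each member that passed. An allele shared by all mice and 1 of these nearest genes are not reported here. *Slc7a5*, *Atf4*, *Chil3*, *Ptprc*, *Cd68* and the genes named for a promoter match were named after their values were seen. Coordinates are from GENCODE M21 (GRCm38, the same build as mm10).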

Additional observations from a re-analysis of the deposited data

Results flagged for a closer look

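The change of *Slc7a11* in sgCebpa/b/d differed from that in sgLkb1 by -2.29 on the log2 scale in a direct test over all libraries (edgeR adjusted p = 0.0283). The 4 lowest sgCebpa/b/d libraries, at log2 CPM of 0.75 or less, include 3 from 1 animal. The call was lost with libraries of an animal summed (-1.95, adjusted p = 0.120), with the replicate number as a block and without any 1 of sgCebpa/b/d replicates 1, 2, 4 and 6 or sgLkb1 replicates 3 and 4. *Gclm* in sgLkb1 replicate 2, at 5.52 log2 CPM, stood apart from the other 4 sgLkb1 libraries, which lay at 5.88 to 5.96. It was the only such library among 27 sets of values of 1 gene in 1 group, and chance alone flags about 1 set in 20.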

How the results depend on the processing

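Under 13 alternatives and 19 fits that left out 1 library, most changes of single genes kept their direction and side of the threshold. For sgCebpa/b/d against sgInert, 1 member passed. The count was 2 with DESeq2, with DESeq2 and gene length offsets, with sex as a covariate and in MT libraries, and 3 in female libraries. It was 0 with limma on TPM, with title series as a covariate, with libraries of an animal summed, with the groups compared alone and when an absolute log2 fold change above 1 was also asked, and 0 to 3 when 1 library was left out. For sgLkb1 against sgInert, 0 passed. The count was 1 with DESeq2 on counts, with limma, in MT libraries and with animals summed, and 0 to 1 when 1 library was left out. For sgCebpa/b/d against sgLkb1, 1 passed. The count was 2 in MT libraries, in female libraries and in libraries with an animal number, 0 with animals summed, and 0 to 1 when 1 library was left out. Replicate numbers did not pair libraries, since deviations of same-numbered libraries correlated at -0.147 to 0.232 over 17 pairs. With the replicate number as a block, the count was 0 in all 3 comparisons and 1293, 873 and 661 genes passed in all. Over the alternatives 703 to 1819, 525 to 1258 and 455 to 1211 genes passed in all. Other NRF2 targets that passed numbered 5 to 13, 1 to 7 and 2 to 6 (10, 5 and 5 with edgeR over all libraries), other antioxidant enzymes 2 to 5, 1 to 5 and 1 to 5 (3, 3 and 2), regulators 1 to 3, 0 to 1 and 1 to 2 (2, 0 and 1), glutathione genes 2 to 4, 0 to 2 and 2 to 4 (3, 0 and 3) and ATF4 targets 4 to 6, 0 to 1 and 4 to 7 (5, 0 and 5). The cause of these shifts was not tested.

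*Slc7a11* in the direct comparison passed in 11 of 13 alternatives. In sgCebpa/b/d against sgInert, *Hmox1* and *Slc7a11* each passed in 6 of 13. No change that passed turned its sign, and those near 0 did. In sgCebpa/b/d against sgInert, *Txnrd1* was -0.026 with DESeq2 and length offsets and -0.13 in female libraries. In sgLkb1 against sgInert, limma on TPM, with which the median of all genes was 0.18, gave *Nfe2l2* 0.18, *Keap1* 0.16 and *Gclm* 0.30. There *Hmox1* was 0.072 with title series as a covariate and 0.12 in MT libraries, and *Gclc* was -0.21 with sex as a covariate, -0.083 with the replicate block and -0.14 to 0.40 when 1 library was left out. *Gclm* was 0.095 with length offsets, 0.024 with no filter, 0.022 with animals summed, 6.76e-05 with the groups compared alone and -0.067 to 0.061 when 1 library was left out. In sgCebpa/b/d against sgLkb1, *Keap1* was 0.033 with sex as a covariate, 0.031 in MT libraries and in libraries with an animal number, 0.069 in female libraries and -0.12 to 0.0084 when 1 library was left out. Low counts limit *Nqo1*, *Srxn1* and *Slc7a11* most.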
